A study of Mus musculus with 10 samples.

Results

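The cytochrome P450 family 2 genes (Cyp2) were followed in mouse liver after an acetaminophen overdose. Members were all genes whose array name was Cyp2 followed by a subfamily letter and a number. Cyp2e1, the main enzyme that activates acetaminophen, was left out of the set. The rule found 46 of the 31473 genes on the array, by name alone. Of these, 44 passed the filter on dim probes, among 24007 genes that passed in all. The 2 that did not pass were Cyp2b19 and Cyp2b23. The tested members were 3 Cyp2a, 3 Cyp2b, 13 Cyp2c, 10 Cyp2d, 1 Cyp2f, 1 Cyp2g and 7 Cyp2j genes, with 6 others of the subfamilies ab, r, s, t, u and w.

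Treated mice were C57BL/6 females, 8 weeks old, that received acetaminophen at 350 mg/kg by 1 intraperitoneal injection in phosphate-buffered saline. Control mice of the same strain, sex and age received the saline alone, and both groups had been without food for 24 h beforehand. Livers were collected 3, 8, 24, 48 or 72 h later, and 2 arrays per time point each compared 1 treated liver (red dye, Cy5) with 1 control liver (green dye, Cy3), 10 arrays in all. The dyes were never exchanged, so within 1 time point treatment and a probe's own dye bias cannot be told apart, whereas a bias that is constant drops out of differences between time points. The fasting was shared by both groups. Unless stated otherwise, a value is the log2 of the treated level over the control level, as the mean of 2 arrays ± SE, where -1 is a level 2 times lower in treated livers. A gene was called when its p-value from limma, adjusted over all 24007 genes by the Benjamini-Hochberg method, was under 0.05.

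P450 enzymes are haem proteins of the endoplasmic reticulum that add oxygen to drugs, steroids and fatty acids, with electrons passed on by P450 reductase and cytochrome b5. In rodent liver the family 2 enzymes are abundant in hepatocytes, many of them most strongly around the central vein, which is also where acetaminophen injures the liver. Several Cyp2b and Cyp2c genes are induced through the nuclear receptors CAR and PXR, and several Cyp2 genes differ between male and female mice under growth hormone.

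The arrays read as liver: all 16 hepatocyte markers examined, such as albumin and transthyretin, passed the filter. Their mean log2 intensity was 14.51 to 15.62 in treated livers and 15.16 to 15.45 in control livers. Across the 24007 genes, which are not independent replicates, the 2 arrays of a time point correlated at 0.68, 0.80, 0.76, 0.86 and 0.27 in order of time. Across the 44 members the correlations were 0.78, 0.82, 0.87, 0.96 and 0.25. Between 44.7% and 75.9% of probes were well above background in treated livers, against 59.7% to 83.7% in control livers. Each time point had 1 array on each of 2 scan days. Of the 44 members, 27, 32, 41, 39 and 22 had ratios of equal sign on the 2 days, in order of time. From 3 to 48 h every called member was among them. The calls came from the means of these same arrays, so this is not a separate check of them. At 72 h no member was called. The array of mouse 3 was the one of the second scan day at every time point. The number of arrays limits the precision, and the labels number the mice separately within each time point.

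The family as a whole was near its control level at 3 and 8 h, lower at 24 h, lower still at 48 h, and back near control at 72 h. The median log2 ratio of the 44 members was 0.02 at 3 h and 0.01 at 8 h. It was -0.63 at 24 h, reached -0.98 at 48 h, and was -0.08 at 72 h. Over all genes tested the median lay between -0.01 and 0 at each time, which is where the within-array loess normalization places it. At 24 h 1 member rose and 22 fell, and at 48 h 28 fell and none rose. Of all genes tested, 10.9% were called at 24 h, with 3.79% higher and 7.09% lower, and 31.4% were called at 48 h, with 13.5% lower. With median centring in place of the within-array loess, 15 members were called at 24 h and 17 at 48 h, all lower, and the members' median was -0.86 at 3 h and -0.46 at 8 h, then -1.16 (24 h) and -0.43 (48 h), so that the order of the times also changed. When the arrays were also scaled to an equal spread after loess, 0 were called at 3 and 8 h, 3 at 24 h (Cyp2j5, Cyp2j6 and Cyp2j13) and 1 at 48 h (Cyp2a22), so this scaling ended all other calls of member ratios described below. The genes still called had dim probes, with mean log2 intensities from 8.14 (Cyp2a22) to 8.59 (Cyp2j6). With this scaling Cyp2c29 was at -4.39 at 24 h and -1.91 at 48 h, and Cyp2c54 at -4.35 and -2.83. For these genes the order of the times thus changed here too. The 44 other P450 genes tested, a set of those outside family 2 together with Cyp2e1, had medians of -0.30 at 24 h and -0.27 at 48 h, with 16 and 19 of them lower. The difference between both sets of P450 genes was not tested.

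**Figure D1:**
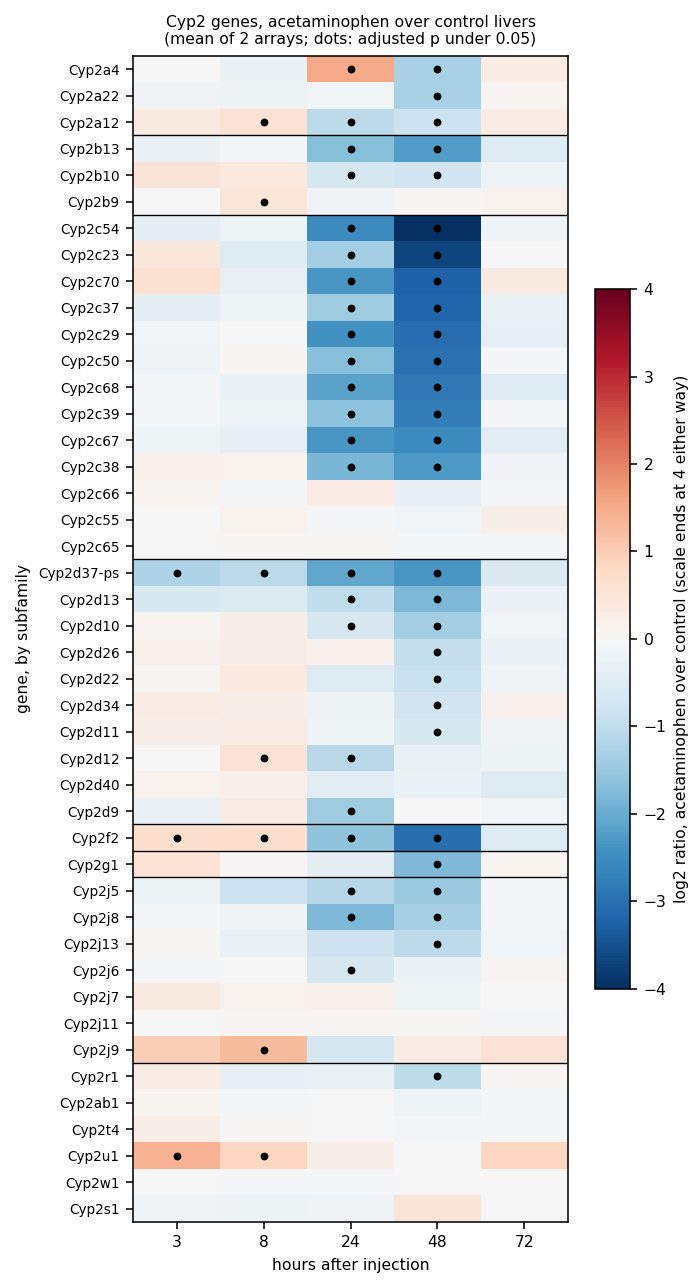
Log2 ratio of acetaminophen over control livers for the 44 tested Cyp2 genes (rows, grouped by subfamily and ordered by their value at 48 h) at 3 to 72 h (columns), as means of 2 arrays; black dots mark adjusted p under 0.05. The colour scale ends at 4 in either direction, which Cyp2c54 exceeds. At 48 h 10 Cyp2c genes, Cyp2d37-ps and Cyp2f2 are at -2.31 or lower, and no gene is marked at 72 h.

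The Cyp2c genes, whose enzymes oxidise drugs and arachidonic acid, showed the deepest falls. They lie on chromosome 19, close together except for Cyp2c23. At both 24 and 48 h 10 of the 13 fell, each to a level at least 2 times lower, and the median of the 13 was -1.70 at 24 h and -2.87 at 48 h. Cyp2c54 had log2 ratios of -2.19 and -2.91 on the arrays of 24 h, and -4.29 and -4.76 on those of 48 h. Its mean of -4.53 ± 0.18 at 48 h was a level 23.0-fold lower in treated livers (limma, adjusted p = 2.12e-05), the largest fall of any member. Its probe lies at chr19:40112528-40112587 on the minus strand (mm9), and its other 2 probes, nearer the start of the transcript, read -2.75 ± 0.24 and -3.12 ± 0.25 at 48 h. All 3 probes of Cyp2c54 thus put it lower, by differing amounts. With median centring all 10 genes were still called lower at 48 h, and at 24 h all but Cyp2c23; with the scaling between arrays none of the 10 was called.

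Cyp2c23, whose enzyme is an epoxygenase of arachidonic acid and which the array names Cyp2c44, read -0.84 and -1.90 at 24 h and -3.37 and -3.96 at 48 h. Cyp2c29, an abundant member inducible through CAR, read -2.27 and -2.56 at 24 h and -2.88 and -3.23 at 48 h. Both genes were lower in the treated liver on all 4 arrays, and for both the 48 h readings lay below the 24 h readings. The difference between 24 and 48 h was called for Cyp2c23 (-2.30 ± 0.41, limma, adjusted p = 0.0151). For Cyp2c29 it was not (-0.64 ± 0.17, limma, adjusted p = 0.0537). The 24 h call of Cyp2c23 rested on mouse 3: without that array its value was -0.84 and not called. Their means at 48 h were -3.66 ± 0.29 and -3.06 ± 0.12, or levels 12.7-fold and 8.33-fold lower (limma, adjusted p = 0.000163 and 2.1e-05). Cyp2c37 read -3.01 and -3.38 and Cyp2c50 -2.62 and -3.39 on the 48 h arrays. Cyp2c38 read -2.20 and -2.42 and Cyp2c39 -2.58 and -2.99 at that time. Each of these 4 genes was lower on both arrays at 24 h as well, with means from -1.83 ± 0.12 for Cyp2c38 to -1.43 ± 0.19 for Cyp2c37. Cyp2c70, Cyp2c67 and Cyp2c68 completed the set with means of -3.23 ± 0.33, -2.55 ± 0.18 and -2.87 ± 0.33 at 48 h. The chosen probes of Cyp2c67 and Cyp2c68 also list Cyp2c40, and each lists a further relative, so these readings cannot be assigned to 1 gene. The 24 h call of Cyp2c68 was lost without the array of mouse 3, at -1.51. A second probe, which lists Cyp2c67 alone, read -2.28 ± 0.17 at 24 h and -3.02 ± 0.17 at 48 h.

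The other 3 Cyp2c genes, Cyp2c55, Cyp2c65 and Cyp2c66, were not called at any time. Cyp2c55, known as a colonic and inducible hepatic enzyme in mice, read -0.04 and -0.07 at 24 h and -0.10 on both arrays at 48 h. Cyp2c65 lay between -0.06 and 0.08 on those 4 arrays. Cyp2c66, whose probe also lists Cyp2c65, read -0.07 and -0.58 at 48 h, and at 24 h it has 1 array only, at 0.34, since the other spot was flagged as an outlier. All 3 had dim probes, with mean log2 intensities of 7.61, 7.26 and 8.12. Dim probes leave less room for a fall to be seen.

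**Figure D2:**
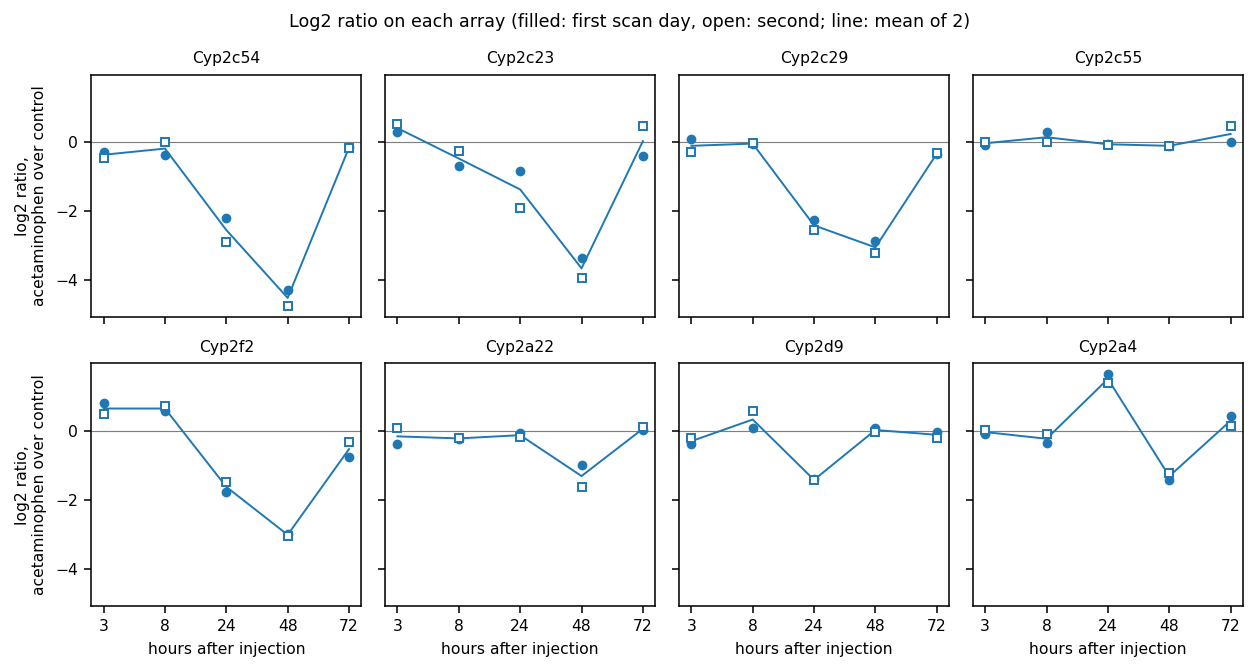
Log2 ratio of acetaminophen over control livers on each array at 3 to 72 h for 8 genes; filled circles are arrays of the first scan day, open squares those of the second, and lines join the means of 2. Cyp2c54, Cyp2c23, Cyp2c29 and Cyp2f2 are lowest at 48 h, Cyp2c55 stays near 0, Cyp2a22 is low at 48 h, Cyp2d9 at 24 h, and Cyp2a4 is high at 24 h and low at 48 h.

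The promoters of Cyp2c genes are shown because these genes moved together. RefSeq promoters (GRCm38.p6) were found for 36 of the 46 members, 11 of them Cyp2c, and the 250 bases before the start were searched on both strands. CAAAGT, the core of the element that the hepatocyte factor HNF4 alpha is known to bind, was present in 10 of the 11 Cyp2c promoters, in 6 of the 25 other members (24%) and in 12.6% of all 32851 promoters. The longer form CAAAGTCCA, which contains it, was in 4 of the 11, in 0 of the 25 and in 0.384% of all. Among Cyp2c genes CAAAGT was in 8 of 8 that fell at 48 h and in 2 of 3 that were not called, and CAAAGTCCA in 3 of 8 and 1 of 3. TATAAA was in 16 of the 36 members and 12.4% of all promoters, and TTGCNNAA, a C/EBP type element, in 10 of 36 and 9.56%. Cyp2c genes descend from common ancestors, so their promoters are not independent, and a match is no evidence of binding. The 150 bases before the start follow for 4 genes that fell and for Cyp2c55, which was not called. The promoters of Cyp2c65 and Cyp2c66, also not called, do hold CAAAGT and are not shown. Capitals mark CAAAGT on either strand. The windows are chr19:40187287-40187436 (minus strand) for Cyp2c70, chr19:39992274-39992423 for Cyp2c37, chr19:39286935-39287084 for Cyp2c29, chr19:40089529-40089678 for Cyp2c50 and chr19:39006869-39007018 for Cyp2c55 (plus strand).
Cyp2c70: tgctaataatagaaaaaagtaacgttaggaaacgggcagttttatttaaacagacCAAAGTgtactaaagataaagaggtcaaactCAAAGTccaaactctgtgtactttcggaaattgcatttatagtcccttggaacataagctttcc
Cyp2c37: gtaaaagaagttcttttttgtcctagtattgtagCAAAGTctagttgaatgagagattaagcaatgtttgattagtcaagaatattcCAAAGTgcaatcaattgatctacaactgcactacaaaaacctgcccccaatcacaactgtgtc
Cyp2c29: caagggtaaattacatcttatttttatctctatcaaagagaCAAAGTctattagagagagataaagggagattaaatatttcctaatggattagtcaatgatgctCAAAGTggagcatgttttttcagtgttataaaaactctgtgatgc
Cyp2c50: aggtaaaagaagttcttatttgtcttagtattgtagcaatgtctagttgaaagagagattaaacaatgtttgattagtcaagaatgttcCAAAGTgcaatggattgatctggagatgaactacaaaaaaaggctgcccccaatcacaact
Cyp2c55: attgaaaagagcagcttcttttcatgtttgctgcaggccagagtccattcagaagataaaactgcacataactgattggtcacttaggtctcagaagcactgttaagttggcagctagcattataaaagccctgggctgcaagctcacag

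Within the window shown, Cyp2c70, Cyp2c37 and Cyp2c29 each hold 2 copies of CAAAGT, Cyp2c50 holds 1 and Cyp2c55 none.

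Cyp2f2, whose enzyme is known for hepatocytes around the portal vein and for activating naphthalene in mouse lung, also fell. It read -1.76 and -1.48 at 24 h and -2.98 and -3.05 at 48 h, so the 48 h arrays lay below both 24 h arrays. With median centring its 24 h value was -2.42 and not called, and its 48 h value was -2.26 and called. The mean at 48 h with loess was -3.02 ± 0.13, a level 8.11-fold lower (limma, adjusted p = 2.52e-05). Of all members it had the smallest p in the test for any difference between time points (limma F test, adjusted p = 0.000244). Among 5 tested members known as pericentral in mouse liver (Cyp2c29, Cyp2c37, Cyp2c38, Cyp2c50 and Cyp2c54), 5 fell at both times, with medians of -1.83 and -3.06. Periportal Cyp2f2 lay inside the pericentral range of -4.53 to -2.31 at 48 h. A difference between the zones was not tested. Of 9 members on a list of CAR or PXR inducible genes 6 fell at 24 h and 6 at 48 h, and the other 3 were Cyp2b9, Cyp2c55 and Cyp2c65. Beside the counts of both lists, 22 of all 44 members fell at 24 h and 28 at 48 h, and 7.09% and 13.5% of all genes. Whether either list differed from the rest of the family was not tested.

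In whole liver, fewer cells of a type and less RNA per cell cannot be told apart. Hepatocyte markers moved in the same direction as the Cyp2 genes: 7 of 16 fell at 24 h and 9 of 16 at 48 h, against 7.09% and 13.5% of all genes, with medians of -0.49 and -0.74. The largest falls among them were those of the urea cycle genes Cps1 (-2.44 ± 0.22) and Arg1 (-2.19 ± 0.43) at 24 h and of the plasma protein gene Ahsg (-2.41 ± 0.15) at 48 h. Their mean log2 intensity was 14.51 to 14.67 in treated livers at 48 h, against 15.33 to 15.45 in control livers. Macrophage markers rose in 1 of 14 cases at 24 h and 7 of 14 at 48 h, against 3.79% and 17.9% of all genes that rose, with a mean level at 48 h of 8.91 to 9.17 in treated livers against 8.21 to 8.38 in control livers. Among them were Marco (3.76 ± 0.73), a scavenger receptor, and the endotoxin co-receptor Cd14 (1.98 ± 0.21). Of 8 neutrophil markers 3 rose at 24 h, when 22 Cyp2 genes fell: S100a9 (3.04 ± 0.50), S100a8 (1.81 ± 0.26) and Cxcr2 (0.68 ± 0.14). Their mean level at 24 h was 9.78 to 9.92 in treated against 8.83 to 9.15 in control livers. At 48 h 4 rose and 1 fell, led by S100a9 (3.66 ± 0.50) and S100a8 (3.41 ± 0.26), and their mean level was 9.69 to 9.85 in treated against 8.51 to 8.85 in control livers. Of 10 endothelial markers 2 rose at 48 h, Lyve1 (1.62 ± 0.29) and Cdh5 (1.35 ± 0.10), and none was called at 24 h (limma, 2 at an unadjusted p under 0.05). Their mean level at 48 h was 9.16 to 9.2 in treated against 8.94 to 9.03 in control livers. Of 10 stellate cell and fibroblast markers 1 fell at 24 h, and 2 rose and 2 fell at 48 h, with a mean level at 48 h of 8.46 to 9.30 in treated against 8.85 to 8.96 in control livers. Of 7 tested cholangiocyte markers 2 rose and 1 fell at 48 h, at 7.64 to 8.36 in treated against 7.46 to 7.87 in control livers. Of 10 lymphocyte markers 1 rose at 24 h, Cd4 (0.96 ± 0.24), and none was called at 48 h (limma, 3 at an unadjusted p under 0.05). The part of these shifts in the fall of the Cyp2 genes was not tested.

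The Cyp2a genes, which hydroxylate steroids and coumarin, behaved unlike one another. The signal named Cyp2a4 was higher at 24 h and lower at 48 h. Its brightest probe read 1.65 and 1.39 on the 24 h arrays and -1.41 and -1.21 on the 48 h arrays, and both arrays of each time agree in sign. Its means were 1.52 ± 0.11 at 24 h, 2.87-fold higher, and -1.31 ± 0.11 at 48 h, 2.48-fold lower (limma, adjusted p = 0.000221 and 0.000189). A second probe read 0.94 ± 0.15 and -0.92 ± 0.15 at these times, and both calls passed. It was the only member that rose at 24 h. Neither call held with median centring, where the values were 0.67 at 24 h and -0.45 at 48 h, and neither held with the scaling between arrays.

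Both probes list Cyp2a4 and its near-identical neighbour Cyp2a5, so the reading cannot be assigned to one of them. The second probe is shown because of this, at chr7:27098659-27099724 (mm9, plus strand, a span that includes an intron, from base 1272 of the transcript). The Cyp2c37 probe from a like stretch, at chr19:40084382-40084441 and base 1242, is set against it. Capitals mark bases equal in both over the 52 that align without gaps, of which 39 are equal.
Cyp2a4: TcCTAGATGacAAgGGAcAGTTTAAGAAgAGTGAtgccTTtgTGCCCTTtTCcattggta
Cyp2c37: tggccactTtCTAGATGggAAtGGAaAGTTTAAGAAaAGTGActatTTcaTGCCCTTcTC

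That Cyp2c37 probe read -1.69 ± 0.15 at 24 h and -2.39 ± 0.15 at 48 h, so these partly alike probes went in opposite directions at 24 h. The promoters of Cyp2a4 and Cyp2a5 were alike too, with 245 of 249 aligned bases equal in the 250 before the start. In the 150 nearest bases shown here 3 differ, marked by capitals, at chr7:26307042-26307191 for Cyp2a4 and chr7:26835189-26835338 for Cyp2a5 (GRCm38.p6, plus strand).
Cyp2a4: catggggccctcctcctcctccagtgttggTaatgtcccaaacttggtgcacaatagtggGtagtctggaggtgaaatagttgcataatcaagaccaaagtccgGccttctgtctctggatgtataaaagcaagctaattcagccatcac
Cyp2a5: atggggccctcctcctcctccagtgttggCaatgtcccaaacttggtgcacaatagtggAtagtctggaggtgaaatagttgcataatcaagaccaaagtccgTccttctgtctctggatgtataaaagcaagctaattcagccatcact

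Cyp2a22 read -0.05 and -0.18 at 24 h and -0.99 and -1.62 at 48 h, with a mean of -1.30 ± 0.16 at 48 h (limma, adjusted p = 0.000766). It was thus lower on both arrays at 48 h while neither 24 h array was far from 0. Its probe was dim, with a mean log2 intensity of 8.14. At 24 h its normalized levels were 7.67 and 7.62 in treated and 7.71 and 7.80 in control livers, which leaves less room for a fall to be seen then. The 48 h call was the only one that held under all 23 alternatives tried. Cyp2a12, a steroid 7-alpha-hydroxylase known from liver, read -1.02 and -1.08 at 24 h and -0.92 and -0.81 at 48 h. At 8 h it had read 0.56 and 0.62, so it was called higher at 8 h and lower at 24 and 48 h, and at 72 h it read 0.62 and -0.04 and was not called. Its means were 0.59 ± 0.13, -1.05 ± 0.13 and -0.87 ± 0.13 at these 3 times (limma, adjusted p = 0.0274, 0.00213 and 0.00241). None of the 3 calls held with median centring, where the values were -0.14 at 8 h, -1.72 at 24 h and -0.02 at 48 h. With slide as a block the 8 and 24 h calls were lost too.

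Among the Cyp2b genes, which include the classical phenobarbital-inducible enzymes, Cyp2b13 fell most. It read -1.81 and -1.62 at 24 h and -2.37 and -2.08 at 48 h, with means of -1.71 ± 0.25 and -2.23 ± 0.25 (limma, adjusted p = 0.00387 and 0.000604). With median centring neither was called, at -2.36 and -1.66, and the 24 h call was lost with slide as a block. Cyp2b10, the standard CAR target of mouse liver, read -0.83 and -0.45 at 24 h and -0.88 and -0.69 at 48 h. The falls of Cyp2b10 were smaller, at -0.64 ± 0.15 and -0.78 ± 0.15, and its 24 h call was lost under 14 of the 23 alternatives, among them median centring (-1.38), the software's ratios, slide as a block, mouse number as a block and leaving out either array of 8, 24 or 72 h. Its 48 h call was lost with median centring, at -0.07, and without the array of mouse 1, at -0.69. Cyp2b9, which like Cyp2b13 is known as female-biased in mice, was not called at either time, with -0.15 ± 0.13 and 0.04 ± 0.13. Of the 4 female-biased members tested (Cyp2a4, Cyp2b9, Cyp2b13 and Cyp2c39) 1 rose and 2 fell at 24 h, and 3 fell at 48 h. Of all 44 members 1 rose and 22 fell at 24 h and 28 fell at 48 h. Among all genes 3.79% rose and 7.09% fell at 24 h, and 13.5% fell at 48 h.

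The Cyp2d genes, relatives of the human drug-metabolising CYP2D6, form a cluster on chromosome 15 and mostly changed less. At 24 h 5 of 10 fell and at 48 h 7 of 10 fell, with medians of -0.57 and -0.83. The largest fall was that of the pseudogene Cyp2d37-ps, which read -2.0 and -2.14 at 24 h and -1.87 and -2.76 at 48 h. It was called lower at 3 and 8 h too, with -1.22 ± 0.28 and -1.09 ± 0.28, the only member called lower at 4 time points. Those early calls were lost under 9 (3 h) and 11 (8 h) of the 23 alternatives. Among these were the software's ratios and the authors' deposited table, which hold the same values up to a constant factor. Others were no filter on dim probes, and leaving out either array of 3 or 24 h, or for the 8 h call either array of 8 h. Cyp2d13 read -0.81 and -1.17 at 24 h and -1.42 and -2.20 at 48 h, with a mean of -1.81 ± 0.24 at 48 h (limma, adjusted p = 0.00124). Cyp2d10, Cyp2d11, Cyp2d22, Cyp2d26 and Cyp2d34 had means between -1.38 ± 0.10 and -0.60 ± 0.14 at 48 h. With median centring none of these 5 was called at 48 h: Cyp2d10 was at -0.53, Cyp2d22 at -0.42, Cyp2d26 at -0.03 and Cyp2d34 at -0.13, and Cyp2d11 changed sign to 0.23. With slide as a block Cyp2d11 and Cyp2d22 were not called. Cyp2d11 was also not called without the 48 h array of mouse 3, at -0.35. At 24 h, neither Cyp2d13 nor Cyp2d10 was called with median centring or with slide as a block. Cyp2d13 was not called at 24 h without either 3 h or either 24 h array, and Cyp2d10 not without the 24 h array of mouse 1, at -0.57. Cyp2d40 was not called at any time. How the probes of this closely related cluster share targets beyond those listed was not analysed here.

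Cyp2d9 and Cyp2d12 followed another course. Cyp2d9, a testosterone 16-alpha-hydroxylase known as male-biased, read -1.40 and -1.43 at 24 h and 0.10 and -0.03 at 48 h. Cyp2d12 read -1.34 and -0.86 at 24 h and -0.35 and -0.23 at 48 h. For both genes the arrays of 24 h lay below those of 48 h without overlap, with means at 24 h of -1.42 ± 0.12 and -1.10 ± 0.11 (limma, adjusted p = 0.000362 and 0.000821). With median centring Cyp2d9 was still called at 24 h, at -1.95, and Cyp2d12 was not, at -1.82. They were the 2 members whose ratio was called higher at 48 than at 24 h. For Cyp2d9 the normalized levels in treated livers were 9.32 and 8.78 at 24 h and 9.36 and 9.25 at 48 h. Its control livers went from 10.72 and 10.21 to 9.26 and 9.28, so this ratio changed mostly through the control level. For Cyp2d12 treated livers went from 11.27 and 11.05 to 11.67 and 11.43, and control livers from 12.61 and 11.91 to 12.03 and 11.66.

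The Cyp2j genes on chromosome 4, a subfamily that includes epoxygenases of arachidonic acid, were mixed, with 3 of 7 lower at 24 h and 3 lower at 48 h. Cyp2j8 read -1.63 and -1.94 at 24 h and -1.23 and -1.44 at 48 h, with means of -1.79 ± 0.09 and -1.33 ± 0.09 (limma, adjusted p = 6.6e-05 and 0.000113). With median centring the 48 h call was lost, at -0.85. Cyp2j5, known from kidney and liver, read -0.50 and -1.76 at 24 h and -1.06 and -1.91 at 48 h. The 2 arrays of Cyp2j5 thus differed by more than 1 log2 unit at 24 h, and its call at 24 h was lost when either array of 3, 8 or 72 h, or the 24 h array of mouse 3, was left out. Its 48 h call was lost without the array of mouse 3, at -1.06. Cyp2j6 fell at 24 h only, at -0.63 ± 0.15, with -0.26 and -0.99 on its arrays, and that call was lost when any array but the 24 h one of mouse 1 was left out. Its second, dimmer probe read -0.22 ± 0.12 and was not called. Cyp2j13 fell at 48 h, at -1.05 ± 0.23, through a probe that also lists Cyp2j12, and not without the array of mouse 3, at -0.81. Of the 8 tested members on a list drawn up for Cyp2c and Cyp2j epoxygenases (Cyp2c29, Cyp2c38, Cyp2c23, Cyp2c50, Cyp2c54, Cyp2j5, Cyp2j6 and Cyp2j9) 7 fell at 24 h and 6 at 48 h. Of all 44 members 22 and 28 fell at these times, and of all genes 7.09% and 13.5%. Whether each listed enzyme makes epoxides was not examined here.

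Cyp2g1, known from nasal epithelium, was seen through a dim probe of mean log2 intensity 8.37. It read -1.78 and -1.77 at 48 h and was lower then by -1.77 ± 0.14 (limma, adjusted p = 0.000158). Cyp2r1, a vitamin D 25-hydroxylase, read -0.94 and -1.11 at 48 h, a mean of -1.03 ± 0.18 (limma, adjusted p = 0.00368). A dimmer second probe of Cyp2r1, some bases further along the transcript, read -0.12 ± 0.17 at 48 h and was not called. The Cyp2r1 call was lost with median centring, at -0.51, and without the 48 h array of mouse 3, at -0.94. Cyp2ab1, Cyp2s1, Cyp2t4 and Cyp2w1 were not called at any time, and their probes had mean log2 intensities of 7.32 to 7.82.

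Few members moved early. At 3 h 2 of the 44 rose and 1 fell, against 7.44% of all genes called (3.36% higher and 4.08% lower). At 8 h 6 rose and 1 fell, against 12.9% of all genes (5.33% higher and 7.57% lower). At 3 h the counts were near what those shares would give among 44 genes. At 8 h the share that rose was above that of all genes and the share that fell below it, a difference that was not tested. Cyp2j9 had the largest rise at 8 h, with readings of 1.11 and 1.44 and a mean of 1.28 ± 0.28, 2.42-fold higher (limma, adjusted p = 0.0243). Cyp2f2 read 0.81 and 0.51 at 3 h and 0.59 and 0.73 at 8 h, with means of 0.66 ± 0.13 at both times (limma, adjusted p = 0.0223 and 0.0149). Cyp2d12 (0.59 ± 0.11) and Cyp2b9 (0.49 ± 0.13) also rose at 8 h, beside Cyp2a12. These early rises depended on the normalization: with median centring in place of loess, Cyp2f2 was at -0.55 at 3 h and -0.07 at 8 h, Cyp2a12 and Cyp2d12 were at -0.14 and Cyp2b9 at -0.13, and Cyp2j9 was at 0.71 and not called. Median centring called 14 members at 3 h (1 higher, 13 lower) and 2 at 8 h (both lower), and put the median of all genes at -0.24 and -0.18. With the scanner software's own ratios 2 members were called at 8 h, 1 in each direction. Leaving out either 8 h array left 0 calls at 8 h, leaving out either 3 h array left 4, and leaving out the 3 h array of mouse 1 left 0 calls at 3 h.

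Cyp2u1, which is known from brain and thymus as a fatty acid hydroxylase, is uncertain. Its bright probe (mean log2 intensity 14.5) read 1.49 and 1.27 at 3 h and 0.84 and 0.90 at 8 h. These are means of 1.38 ± 0.20 and 0.87 ± 0.20 (limma, adjusted p = 0.00868 and 0.0302). With median centring they were 0.16 and 0.12 and not called. That probe lists no RefSeq gene, whereas a dim probe that does list Cyp2u1 (mean log2 intensity 7.0) read -0.08 ± 0.08 and -0.07 ± 0.08. Both probes cannot stand for the same transcript level, and which of them reads Cyp2u1 was not tested.

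**Figure D3:**
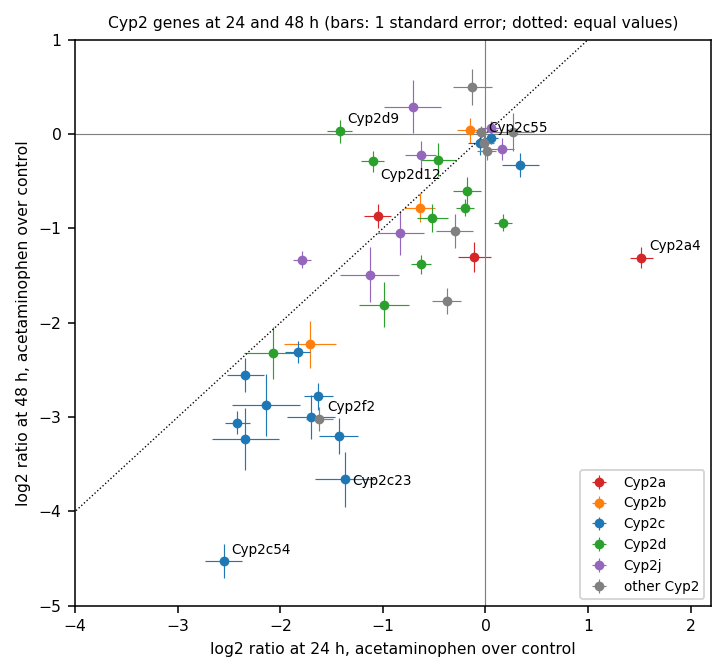
Log2 ratio of acetaminophen over control livers at 24 h (horizontal) and 48 h (vertical) for the 44 tested Cyp2 genes, coloured by subfamily (Cyp2f2 and Cyp2g1 among the others, in grey); bars are 1 SE of the fit with 2 arrays per time, and the dotted line marks equal values. The 10 Cyp2c genes that fell and Cyp2f2 lie below the line, Cyp2d9 and Cyp2d12 are among those above it, and Cyp2a4 stands to the right at 1.52 and -1.31.

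Differences between neighbouring time points were tested within the same fit. Between 3 and 8 h none of the 44 members differed (limma, 0 at adjusted p under 0.05, 5 at an unadjusted p under 0.05), against 0.825% of all genes (0.533% higher). Between 8 and 24 h 18 differed, 17 lower and 1 higher at 24 h, against 6.28% of all genes (3.82% lower and 2.46% higher). The lower ones were led by Cyp2c29 (-2.38 ± 0.17), Cyp2c54 (-2.37 ± 0.26) and Cyp2f2 (-2.28 ± 0.18), and the higher one was Cyp2a4 (1.74 ± 0.16). Between 24 and 48 h 14 differed, 12 lower and 2 higher at 48 h, against 10.5% of all genes (2.65% lower and 7.8% higher). The largest was that of Cyp2a4 (-2.83 ± 0.16), followed by Cyp2c23 (-2.30 ± 0.41) and Cyp2c54 (-1.98 ± 0.26), whereas Cyp2d9 (1.45 ± 0.17) and Cyp2d12 (0.81 ± 0.16) were higher at 48 h. These are differences of ratios, which can also change through the control level, given below for some of these genes. The count fell to 8 without the 24 h array of mouse 1 and to 6 without the 48 h array of mouse 3. With slide as a block or with scaling between arrays, all the 8 to 24 h and 24 to 48 h calls were lost. With median centring 0 members differed between 8 and 24 h, and 1 differed between 24 and 48 h.

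Between 48 and 72 h 23 members differed and all 23 were higher at 72 h, against 16.6% of all genes called and 6.56% called higher. All 10 Cyp2c genes that had fallen were among them, with differences from 2.12 ± 0.26 for Cyp2c67 to 4.38 ± 0.26 for Cyp2c54 (limma, adjusted p = 0.00259 and 0.000308). These counts rest on the normalization: with median centring 2 members differed between 48 and 72 h, both higher at 72 h, and with scaling between arrays none did. Cyp2c54 read -0.13 and -0.17 on the 72 h arrays, and Cyp2c29 read -0.35 and -0.31. Cyp2f2 was 2.50 ± 0.18 higher at 72 h than at 48 h, at -0.74 and -0.30. At 72 h itself 0 of the 44 members were called (limma, 7 at an unadjusted p under 0.05), as were 0 of all genes (0%). The smallest adjusted p among members at 72 h was 0.614, that of the Cyp2u1 probe. With 2 arrays that correlated at 0.25 over the members, this does not show that levels were equal to control. Over all 5 times 28 of the 44 members differed between some time points (limma F test), against 23.3% of all genes, and 33 did at an unadjusted p under 0.05. That count was 2 with median centring, 0 with scaling between arrays and 15 with slide as a block.

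The level in each dye was followed as well, because a ratio can change through either liver. Levels are log2 intensities after loess and quantile normalization of mean intensities between arrays (Aquantile), with treated livers read in Cy5 and control livers in Cy3. That step leaves the ratios unchanged and is not the scaling between arrays used above as an alternative. In control livers 11 of the 44 members differed over time (limma F test, 26 at an unadjusted p under 0.05), against 3.66% of all genes. That count moved with 1 array: it was 2 without either array of 3 h or of 72 h or the 24 h array of mouse 1, 3 without the 24 h array of mouse 3, 5 without the 48 h array of mouse 3 and 6 without the 8 h array of mouse 3. Cyp2a12 and Cyp2c23 were called under all 16 alternatives, with adjusted p of at most 0.05 (rounded) and 0.0121. The other 9 were Cyp2a4, Cyp2b9, Cyp2c37, Cyp2c38, Cyp2c54, Cyp2c67, Cyp2d9, Cyp2j9 and the uncertain Cyp2u1 probe, each called under 1 to 9 of the 16.

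Cyp2c23 was low in both groups at 24 h. In treated livers it read 9.02 and 8.17 at 24 h and 10.04 and 9.66 at 48 h, against 9.86 and 10.06 at 24 h and 13.41 and 13.62 at 48 h in control livers. The treated livers thus had a higher level at 48 h than at 24 h, while the ratio was lower at 48 h. Control livers differed from those of 3 h by -1.72 at 24 h and by 1.83 at 48 h. Cyp2a12 showed a like dip at 24 h, at 11.00 and 11.74 in treated livers against 12.02 and 12.82 in control livers. At 8 h the levels were 15.20 and 15.04 in treated livers against 14.64 and 14.41 in control livers. Control livers at 24 h were -1.94 relative to 3 h for this gene, the largest fall among called members. Cyp2c37 was also lower in control livers at 24 h, by -1.24 relative to 3 h, and treated livers were at 11.46 and 10.85 against 12.53 and 12.64 in control livers. At 48 h its treated livers were at 11.08 and 10.87, against 14.09 and 14.25. For Cyp2c54 treated livers went from 11.87 and 11.02 at 24 h to 11.00 and 10.60 at 48 h, and control livers from 14.06 and 13.93 to 15.29 and 15.36. For Cyp2c38 treated livers went from 10.93 and 10.55 to 9.32 and 9.11, and control livers from 12.70 and 12.44 to 11.52 and 11.53. The share of each liver in the lower ratios at 48 h thus differed between genes.

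For the Cyp2a4 signal the treated livers moved more than the control livers between 24 and 48 h, but not between 8 and 24 h. At 8 h treated livers were at 15.35 and 15.58, against 15.71 and 15.67 in control livers. By 24 h the treated level was higher and the control level lower, so both livers contributed to the rise of the ratio. Treated livers were at 16.35 and 16.31 at 24 h and 14.03 and 14.70 at 48 h, against 14.70 and 14.91 and then 15.44 and 15.91 in control livers. The 24 h treated livers were above every other liver of either group for this probe. Cyp2j9 was at 9.92 and 9.71 in treated livers at 8 h, against 8.80 and 8.27 in control livers. Control livers of 24, 48 and 72 h were at 9.21 to 9.93 for Cyp2j9, so the high ratio at 8 h stood against a low control level. For Cyp2c29 and Cyp2f2 the control levels were not called different over time (limma F test, adjusted p = 0.259 and 0.694), with means of 13.77 to 14.32 and 14.50 to 14.96.

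**Figure D4:**
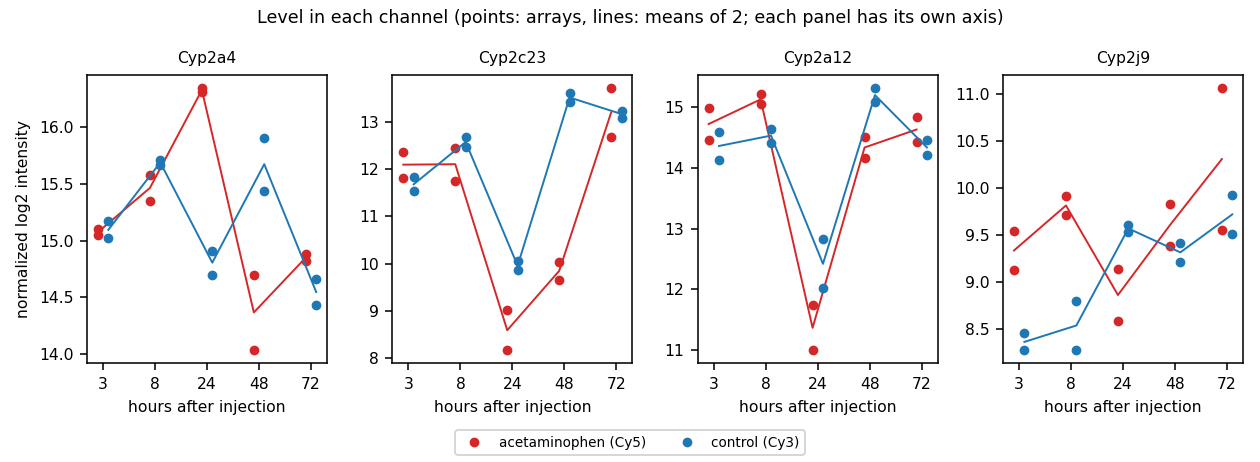
Normalized log2 intensity of 4 genes in acetaminophen-treated livers (red, Cy5) and control livers (blue, Cy3) at 3 to 72 h; points are arrays, lines join the means of 2, and each panel has its own vertical axis. Cyp2a4 peaks in treated livers at 24 h, Cyp2c23 and Cyp2a12 dip in both groups at 24 h, and Cyp2j9 is lowest in control livers at 3 and 8 h.

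Genes that supply P450 enzymes with electrons and haem moved over the same period. Of 14 such genes 3 fell and 1 rose at 3 h, and 5 fell and 1 rose at 8 h. At 24 h 8 fell and 1 rose, and 6 fell and 2 rose at 48 h. Of all genes 4.08% fell and 3.36% rose at 3 h, 7.57% and 5.33% at 8 h, 7.09% and 3.79% at 24 h, and 13.5% and 17.9% at 48 h. The haem-degrading enzyme gene Hmox1 rose at 3, 8, 24 and 48 h, with 3.16 ± 0.19 at 8 h and 1.68 ± 0.19 at 48 h. Alas1, the rate-limiting enzyme of haem synthesis, fell at 3 h (-1.70 ± 0.26). The cytochrome b5 genes Cyb5b (-2.16 ± 0.15) and Cyb5a (-1.89 ± 0.10) led the falls at 24 h, and Cyb5a was at -1.72 ± 0.10 at 48 h.

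Known regulators of P450 genes were lower in many cases from 3 h on. Of 26 regulators 8 fell and 3 rose at 3 h, and 8 fell and 2 rose at 8 h. None rose later, while 10 fell at 24 h and 15 at 48 h, and in that order of times the median was -0.39, -0.33, -0.45 and -0.55. Among all genes 4.08%, 7.57%, 7.09% and 13.5% fell at those times, and 3.36%, 5.33%, 3.79% and 17.9% rose. The forkhead factors Foxa1 (-2.15 ± 0.25) and Foxa2 (-2.06 ± 0.15) and the circadian factor Dbp (-1.95 ± 0.39) had the largest falls at 3 h. Dbp was at -3.14 ± 0.39 at 48 h, with its relative Tef at -1.45 ± 0.23 and the glucocorticoid receptor Nr3c1 at -1.40 ± 0.10. Between 48 and 72 h 12 of the 26 were called higher at 72 h and none lower, against 6.56% and 10% of all genes. The xenobiotic receptors, picked out after their values were seen, were lower at single times: PXR (Nr1i2) at 24 h (-1.01 ± 0.22) and CAR (Nr1i3) at 48 h (-1.23 ± 0.25). The gene lists outside Cyp2 were examined with the loess normalization alone, and what these changes have to do with the Cyp2 genes was not tested.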

How the data were processed

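RNA from 10 treated and 10 control livers was compared on 10 two-colour Agilent arrays, 2 per time point. The deposited scanner files hold raw intensities per spot (mean signal and background), made with Agilent Feature Extraction 10.7.3.1 per the file headers. Their log10 ratio of Cy5 over Cy3 is the software's own value, per the file headers, and was used as an alternative. The authors' deposited value table, a score of unstated scale, equals a constant 1.44 times that log10 ratio with correlation 1, has a median of 0 on every array and holds 7.25% to 25.5% zeros. How it was centred is not given in the sources used here.

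Background was corrected by normexp with an offset of 50 and ratios were normalized by loess within each array in limma 3.58.1 (R 4.3.3). The 1377 control spots and 2718 spots flagged as outliers were left out. Of 39429 probes 29623 were kept: those that, at 1 time point or more, the software marked well above background on both arrays in 1 and the same dye. The brightest kept probe stood for a gene; 10 members had over 1. Of the members 45 were named by accession and 4 carry an older name on the array (Cyp2c44 for Cyp2c23, and Cyp2j7-ps, Cyp2j8-ps and Cyp2j11-ps). One coefficient per time point was fitted with lmFit and eBayes (5 residual degrees of freedom). For levels per dye, loess was followed by Aquantile normalization, so both dyes share the loess step. The fits were checked on simulated data.

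Every tested member may be named; readings of each array are given for the members with the largest called changes in each subfamily and for members of the role lists. Members and lists were chosen with earlier results of these data known: the family was picked with those results in view, and the genes within it were then found by name alone. Alternatives changed the background correction, normalization, filter, probe rule, blocks and arrays used. Promoter and probe sequences were compared with Biopython 1.88 and figures drawn with matplotlib 3.10.9 (Python 3.11.15).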

Additional observations from a re-analysis of the deposited data

Results flagged for a closer look

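Several members differed between neighbouring time points in opposite directions, or with the opposite sign at both times, by the test of the difference itself (limma, adjusted over all genes tested). In all 18 members differed between 8 and 24 h, 14 between 24 and 48 h, 23 between 48 and 72 h and 28 over all times. With median centring these counts were 0, 1, 2 and 2, and with scaling between arrays all were 0.

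The Cyp2a4 signal was higher at 24 h than at 8 h by 1.74 ± 0.16 (limma, adjusted p = 0.0014), lower at 48 h than at 24 h by -2.83 ± 0.16 (limma, adjusted p = 0.000728) and higher at 72 h than at 48 h by 1.62 ± 0.16 (limma, adjusted p = 0.00139). Cyp2f2 went the other way between 8 and 24 h (-2.28 ± 0.18), was lower again at 48 h (-1.40 ± 0.18) and higher at 72 h (2.50 ± 0.18). Cyp2a12 differed by -1.64 ± 0.19 between 8 and 24 h and by 1.16 ± 0.19 between 48 and 72 h. Cyp2d12 differed by -1.69 ± 0.16 between 8 and 24 h and by 0.81 ± 0.16 between 24 and 48 h. Cyp2d9 differed by 1.45 ± 0.17 between 24 and 48 h, when most called members differed downward. These differences cancel a constant dye effect of the probe. They can also arise through the control livers, whose levels are given above for Cyp2a4, Cyp2a12, Cyp2d9 and Cyp2d12.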

How the results depend on the processing

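Of the 23 called values at 24 h 11, and of the 28 at 48 h 15, kept their call under every alternative other than scaling between arrays. None of the 3 calls at 3 h and 7 at 8 h did. Of 3641 values compared for uncalled members 52 were called under an alternative.

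With median centring 14 members were called at 3 h and 2 at 8 h, then 15 at 24 h and 17 at 48 h, with 0 between 8 and 24 h, 1 between 24 and 48 h, 2 between 48 and 72 h and 2 over all times. Values that changed sign there were those of Cyp2a12 (-0.14), Cyp2b9 (-0.13) and Cyp2d12 (-0.14) at 8 h, Cyp2d11 (0.23) at 48 h, and Cyp2f2 at 3 h (-0.55) and 8 h (-0.07). With scaling between arrays after loess 0 members were called at 3 and 8 h, 3 at 24 h and 1 at 48 h, and 0 for each of the 3 differences and over all times. The software's ratios and the authors' deposited table each gave 2 calls at 8 h. Both hold the same values up to a constant factor, so they count as 2 of the 23 alternatives but are not separate checks. With slide as a block there were 0 calls at 3 h, 3 at 8 h, 0 between 8 and 24 h, 0 between 24 and 48 h and 15 over all times; arrays of 8 and 24 h shared no slide. In control livers the count was 4 with an offset of 0, 4 without background correction, 7 with the mean of probes and 4 with quantile normalization. The cause of these changes was not tested.

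Leaving out 1 array gave 0 to 4 calls at 3 h, 0 to 7 at 8 h, 17 to 22 at 24 h, 24 to 29 at 48 h and 0 at 72 h. The differences ranged over 0 between 3 and 8 h, 12 to 19 between 8 and 24 h, 6 to 17 between 24 and 48 h and 17 to 26 between 48 and 72 h, with 22 to 29 over all times and 2 to 11 in control livers. Between the 4 time points that share both mouse numbers, deviations of same-numbered arrays correlated at -0.04 to 0.29, over 0.1 in 4 of 6 pairs of times. Since this did not hold in every pair, the numbers were not taken to pair the mice. All 5 arrays of mouse 3 were scanned on the second day and no others were, so mouse number 3 and the second scan day cannot be told apart. With the number as a replicate block 2 members were called at 8 h, and later 21 (24 h) and 27 (48 h). Dim probes limit what can be seen for Cyp2c55, Cyp2c65, Cyp2j11 and the subfamilies ab, s, t and w.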
